A study of Mus musculus with 2 samples.

Results

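Smooth muscle cells were followed in single-cell RNA sequencing (scRNA-seq) data of the newborn mouse lung. Members were selected on measured counts, so the values of the genes used for the choice are given as a description. A barcode was a member when it had at least 500 detected genes, at most 20% mitochondrial UMIs, no UMI of *Ptprc*, *Cdh5*, *Epcam* or *Pdgfra*, at least 5 UMIs of *Myh11*, *Cnn1* and *Des* together, and fewer than 4 UMIs of *Aspn*, *Wnt5a*, *Pappa2* and *Ltbp2* together. A UMI is a molecular tag that lets each captured mRNA molecule be counted once. The rule found 103 cells among the 15520 barcodes that passed the limits on genes and mitochondrial UMIs. The room air library held 17 of them and the hyperoxia library 86. Both libraries came from C57BL/6 mice (the substrain C57BL/6J in the study's methods) at postnatal day 14 (P14), 1 raised in room air (21% O2) and 1 in hyperoxia (80% O2, from birth), a model of bronchopulmonary dysplasia in which high oxygen is given during alveolar growth. Each library pooled the lungs of 8 mice, so neither group had a replicate, and no test between the groups could be made. Values per group are counts per 1000000 UMIs summed over its cells (CPM). The 95% intervals in parentheses (exact Poisson for CPM, exact Clopper-Pearson for shares, exact conditional for ratios) allow for counting error alone. Differences among mice and between library preparations are not in them. Where 0 cells were found, the limit given is 3 cells of the total.

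Smooth muscle cells surround arteries, veins and airways and set their width by contraction. Calcium entry activates myosin light chain kinase, myosin then pulls on actin filaments, and nitric oxide, through cyclic GMP, relaxes the cell again. The same cells lay down elastic fibres and basement membrane, and their contractile genes depend on serum response factor (SRF) and its partner myocardin, which bind the CArG box, a short AT-rich motif in many muscle promoters. In the lung, thickening and spread of smooth muscle around small vessels is a known feature of oxygen injury.

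Members of the room air library carried 10894 UMIs at the median (852 to 23268), those of the hyperoxia library 10001 (1875 to 20451), and they summed to 182585 and 835524 UMIs. The hyperoxia values therefore carry less counting error, and the 17 room air cells limit every comparison. The 17 barcode sequences found in both libraries included no member. Contractile UMIs (*Myh11*, *Cnn1* and *Des*) ranged from 11 to 156 per member in room air, with a median of 47, and from 5 to 231 in hyperoxia, with a median of 62. Just inside the limit lay 1 cell with 5 and 7 cells with 6 contractile UMIs, all from hyperoxia, and just outside lay 1 cell with 4 and 10 cells with 3. The limit on *Aspn*, *Wnt5a*, *Pappa2* and *Ltbp2*, genes of alveolar myofibroblasts, cut a continuous range. With all other conditions met, 11 cells had 3 of these UMIs and 12 cells had 4. Of the 1155 contractile barcodes without *Ptprc*, *Cdh5* and *Epcam*, 1047 had at least 4 of them. The 1052 cells left out by this limit or by *Pdgfra* are called the other contractile cells (315 in room air, 737 in hyperoxia). They, the pericyte-marked cells (47 and 57, with at least 3 UMIs of *Cox4i2*, *Higd1b* and *Kcnj8* together) and all other kept barcodes serve for comparison. A few hyperoxia members carried many UMIs of another cell type. *Sftpc*, a surfactant gene of alveolar type 2 cells, reached 551 UMIs in a cell and was at least 100 in 2 cells. *Myl7*, an atrial myosin gene, was found in 1 cell, with 35 UMIs, and *Higd1b*, a pericyte gene, in 2 cells, with 20 UMIs in all. Cells with at least 100 UMIs of *Sftpc*, 10 of *Myl7* or 5 of *Higd1b* are called rich in these genes. Few *Sftpc* UMIs were found in most cells: 14 of 17 and 81 of 86 members had at least 1, and so had 83.6% and 93.1% of barcodes marked as B cells (*Ptprc* and at least 3 UMIs of *Cd79a* and *Cd79b*), which do not make it.

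The label of the cells was checked against marker genes. The rule fixed a high level of *Myh11*, *Cnn1* and *Des*, so these 3 describe the cells and do not bear on the label. *Myh11*, smooth muscle myosin, had 3659 CPM (3386 to 3947) under room air against 4740 CPM (4593 to 4890) under hyperoxia, at least 37.5-fold the level of all other kept barcodes of the same library. *Acta2*, smooth muscle actin, which was not part of the rule, had 15144 CPM and 17875 CPM and was detected in 17 of 17 and 84 of 86 members. *Cnn1*, calponin, and *Des*, desmin, were also present at 685 and 663 CPM in room air and 1305 and 887 CPM in hyperoxia. Of the 9 vascular smooth muscle markers, 8 reached a mean of 50 CPM. These included *Notch3*, the Notch receptor of arterial mural cells (225 and 215 CPM), the muscle gene *Mustn1*, the growth factor *Ntf3* and the integrin subunit *Itga8*, while *Pln*, phospholamban, had 0 UMIs in room air and 4 in hyperoxia. Together the vascular markers had 4464 and 3677 CPM in the members, below the 7541 and 5664 CPM of the pericyte-marked cells and above the 2312 and 1583 CPM of the other contractile cells. The airway markers had 1961 and 2370 CPM in the members, mostly from *Actg2*, against 627 and 896 CPM in the other contractile cells and 492 and 452 CPM in the pericyte-marked cells. Of the 8 airway smooth muscle markers, *Hhip*, *Nog*, *Chrm3* and *Acta1* had no UMI in any of the 103 cells. For *Hhip*, an inhibitor of hedgehog signalling, 0 of 17 and 0 of 86 cells allow a share of up to 17.6% and 3.49%, where a cell may make it without a UMI. The other contractile cells, which were deeper, with medians of 14721 and 12493 UMIs, had it in 22.9% (18.3 to 27.9) and 19.8% (16.99 to 22.9), and at 2000 UMIs per cell in 10.2% (7.08 to 14.1) and 9.63% (7.60 to 11.996). At that depth, 0 of 16 and 0 of 84 members allow up to 18.75% and 3.57%, so the limit lay below the interval of the other contractile cells in hyperoxia alone, and no difference was detectable in room air. *Chrm3* had no UMI in the other contractile cells either, so its absence does not tell these cells apart. Only *Actg2*, enteric-type smooth muscle actin, and *Lgr6* reached a mean of 50 CPM among the airway markers. Cells of airway muscle with *Aspn*, *Wnt5a*, *Pappa2*, *Ltbp2* or *Pdgfra* would have been removed by the rule, so they are called smooth muscle cells here. Endothelial markers summed to 27.4 and 102 CPM and mesothelial markers to 5.48 and 1.20 CPM, neural and glial markers to 0 and 11.97 CPM, and red cell genes to 32.9 and 9.57 CPM. Pericyte markers summed to 1188 and 2111 CPM, against 14908 and 15537 CPM in the pericyte-marked cells. Not all markers of other cells were low. Cardiac muscle markers, mostly *Actc1*, summed to 2826 and 2457 CPM in the members, against 87.6 and 76.8 CPM in all other kept barcodes. Epithelial markers summed to 405 and 2133 CPM, against 34539 and 36564 CPM there.

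**Figure D1:**
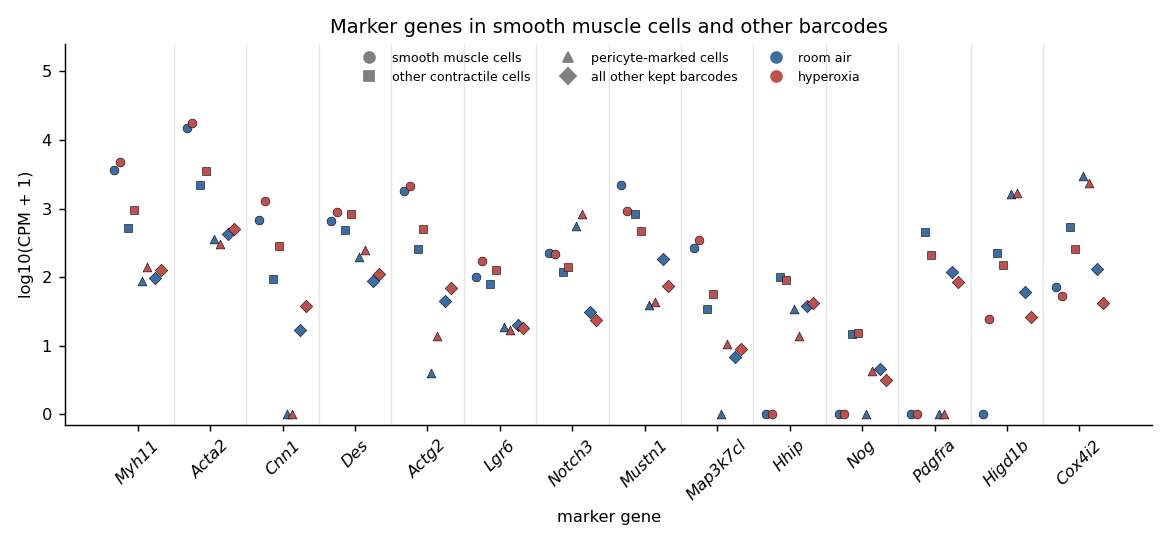
Level of 14 marker genes, as log10(CPM + 1) on the vertical axis, in the smooth muscle cells (circles), the other contractile cells (squares), the pericyte-marked cells (triangles) and all other kept barcodes (diamonds), with room air in blue and hyperoxia in red. *Myh11*, *Acta2* and *Cnn1* were highest in the smooth muscle cells, *Higd1b* and *Cox4i2* in the pericyte-marked cells, and *Hhip* lay at 0 in the smooth muscle cells.

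SRF binds the CArG box as CC, 6 letters of A or T, and GG, a motif that reads the same on both strands. Promoter sequences of 27 of the 30 genes of the contractile list were found in RefSeq (GRCm38.p6, 250 bases before to 50 after the start of transcription), and 6 of the 27 genes, or 22.2%, held at least 1 exact box. Over all 27025 genes with a promoter in the table the share was 1.81%. No promoter was found for *Actg2*, *Myh11* and *Tagln*. The 6 genes with a box were *Acta1*, *Actc1*, *Ldb3*, *Myl6*, *Myl9* and *Vcl*. The upstream stretches of 3 of them, all detected in the members, are shown as examples, in lower case with the box in capitals. *Actc1* encodes cardiac actin, *Ldb3* a Z-disc protein that binds actinin, and *Myl9* the regulatory light chain of smooth muscle myosin. They lie on the minus strand at chr2:114052876-114053125 and chr14:34588608-34588857 and on the plus strand at chr2:156775214-156775463, each printed 5′ to 3′ and ending just before the transcription start.
*Actc1*: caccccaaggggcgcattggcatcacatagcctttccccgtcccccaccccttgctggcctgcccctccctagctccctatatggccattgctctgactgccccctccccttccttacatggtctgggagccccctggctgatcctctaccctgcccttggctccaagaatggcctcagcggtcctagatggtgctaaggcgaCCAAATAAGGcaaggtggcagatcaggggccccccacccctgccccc
*Ldb3*: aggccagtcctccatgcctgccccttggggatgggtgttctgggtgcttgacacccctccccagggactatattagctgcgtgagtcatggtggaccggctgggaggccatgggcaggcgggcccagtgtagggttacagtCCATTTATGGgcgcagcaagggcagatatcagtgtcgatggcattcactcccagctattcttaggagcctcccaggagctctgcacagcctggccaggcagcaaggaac
*Myl9*: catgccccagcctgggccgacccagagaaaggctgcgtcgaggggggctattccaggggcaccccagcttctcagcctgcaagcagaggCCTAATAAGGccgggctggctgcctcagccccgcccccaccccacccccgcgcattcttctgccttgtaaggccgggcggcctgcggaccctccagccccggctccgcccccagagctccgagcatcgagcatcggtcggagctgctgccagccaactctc
The boxes begin at position -47 in *Actc1*, -109 in *Ldb3* and -161 in *Myl9*, counted from the start. A second RefSeq start of *Ldb3* places the same box at -35. The 3 genes had 2651, 164 and 3943 CPM in the members of room air. A match of letters is a description and not a measured binding site.

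Smooth muscle cells were 17 of the 3809 kept barcodes in room air, or 0.446% (0.260 to 0.714), and 86 of 11711 in hyperoxia, or 0.734% (0.588 to 0.906). The intervals overlapped. Among contractile barcodes without *Ptprc*, *Cdh5* and *Epcam*, their share under room air was 5.12% (3.01 to 8.07). Under hyperoxia it was 10.4% (8.44 to 12.7), an interval that did not overlap the first. The limits of the rule are absolute counts, so a shallower cell stays below the limit on *Aspn*, *Wnt5a*, *Pappa2* and *Ltbp2* more easily. The other contractile cells were shallower under hyperoxia, with a median depth of 12493 against 14721 under room air. Members with only 5 to 9 contractile UMIs numbered 12 under hyperoxia and 0 under room air. The part of depth in this share was not tested. A share after tissue digestion reflects both how many cells a lung holds and how many are released, and these cannot be told apart.

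The 15 genes that marked the members most over all other kept barcodes were taken by the lower of the ratios in the 2 libraries, and *Myh11*, a gene of the rule, was among them. *Sost*, which encodes the Wnt inhibitor sclerostin, led with at least 102-fold more CPM than the other barcodes. It was followed by *Mylk4*, a myosin light chain kinase, *Timp4*, an inhibitor of metalloproteinases, *P2rx1*, the ATP-gated channel that contracts arteries, and *Ldb3*. *Tcap* (telethonin), *Sh3bgr*, *Aoc3* (a surface amine oxidase of vascular muscle), *Scube3*, *Synpo2* and *Map3k7cl* came next, then *Pcp4l1*, *Myh11*, *Actc1* and *Lmod1*, a leiomodin that lengthens actin filaments. *Sost* had 175 CPM (120 to 247) under room air against 438 CPM (394 to 485) under hyperoxia, against 5.30 and 21.7 CPM in the other contractile cells. *Aoc3* had 509 and 450.02 CPM in the members and 46.6 and 56.3 CPM in the other contractile cells. *Myocd*, the gene of myocardin, had 219 CPM (157 to 298) and 266 CPM (232 to 303) in the members. These ratios describe the cells the rule chose and are not tests of the choice.

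The members were not uniform, and *Igfbp5* separated them in both libraries. *Igfbp5* (ENSMUSG00000026185, chromosome 1 of GRCm38, 72857932 to 72874884) encodes a secreted binding protein for insulin-like growth factors. In hyperoxia, over 73 members with at least 2000 UMIs, at least 10 contractile UMIs and not rich in *Sftpc*, *Myl7* or *Higd1b*, its level over the cells ran opposite to that of *Ptgis*, prostacyclin synthase (Spearman's rho = -0.69), of *Csrp2* (-0.69) and of *Sost* (-0.68). In the 16 such members of room air the values were -0.70, -0.38 and -0.75. Cells high in *Igfbp5* tended to be high in *Sparcl1* (0.64 in hyperoxia and 0.54 in room air), *Btbd3* (0.54 and 0.55), *Plpp3* (0.51 and 0.74) and the calcium channel gene *Cacna1c* (0.504 and 0.64). Other genes alike in hyperoxia were not so in room air: *Ednrb* had 0.52 and -0.08, *Olfml2a* 0.47 and 0.11, and *Rgs7bp* 0.46 and 0.14. *Vcan*, *Fbln5*, *Actn1*, *Col15a1*, *Pdlim3* and *Cpe* were further genes opposite to *Igfbp5*, with values from -0.61 to -0.53 in hyperoxia and from -0.79 to -0.56 in room air. *Nupr1*, *Arpc2* and *Lrrfip1*, with -0.59, -0.54 and -0.53 in hyperoxia, had 0.10, -0.03 and -0.48 in room air. Of the 12 genes most opposite to *Igfbp5* in hyperoxia 11 had a negative value in room air, where 47.2% of 1493 genes did. Of the 12 genes most alike 11 had a positive value, where 52.8% did. The points are cells of 1 library each and share its depth and free RNA, so these values are descriptions, and *Igfbp5* was taken as the reference after its values had been seen.

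**Figure D2:**
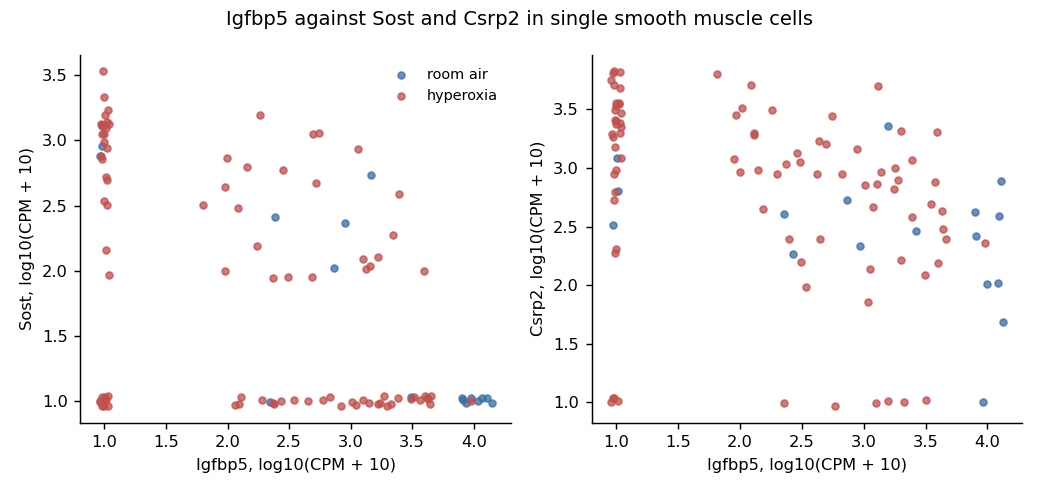
Each point is 1 smooth muscle cell (17 of room air in blue, 86 of hyperoxia in red), with *Igfbp5* on the horizontal axis and *Sost* (left) or *Csrp2* (right) on the vertical axis, as log10(CPM + 10) with a small random shift, so that cells without a UMI lie near 1. Cells with the most *Igfbp5* had no *Sost*, and cells with the most *Csrp2* lay at low *Igfbp5*.

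*Sost* was detected in 7 of 17 members of room air and 45 of 86 of hyperoxia, and with every cell thinned to 2000 UMIs in 31.2% (11.02 to 58.7) and 34.5% (24.5 to 45.7). Of the B-cell barcodes, 0 of 384 in the room air library (which allows up to 0.781%, median 5107.5 UMIs) and 1 of 1189 of hyperoxia (median 3248 UMIs) had *Sost*. By summed UMIs of the vascular and airway markers, 13 of 17 members of room air lay on the vascular side, or 76.5% (50.1 to 93.2), and 68 of 86 of hyperoxia, or 79.1% (69.0 to 87.1). The airway side held 4 and 15 cells, 3 cells of hyperoxia were tied, and 1 and 5 cells lay within 1 UMI of the cut. This division rested on *Actg2*. Without it 17 of 17 and 84 of 86 cells were on the vascular side, so it is a range between more *Actg2* and more *Mustn1* or *Notch3*, not a division into cell types. Dividing cells, with at least 2 of 8 genes of division (*Mki67*, *Top2a*, *Cdk1*, *Ccnb1*, *Ccnb2*, *Ccna2*, *Birc5* and *Cenpf*), were 0 of 17 in room air, which allows up to 17.6%, and 5 of 86 in hyperoxia, or 5.81% (1.91 to 13.05), where all other kept barcodes had 6.12% and 5.55%.

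Between the libraries, most genes of the members differed little. Of 3107 genes with a mean of at least 50 CPM, 175 (5.63%) were at least 2-fold higher in hyperoxia with an interval above 0 on the log2 scale, and 103 (3.32%) at least 2-fold lower with an interval below 0. Of all 3107 genes, 52.4% had a log2 ratio above and 47.6% below 0, and 12.1% had an interval above and 10.9% an interval below 0. These counts are sums over cells of 2 libraries and do not count changed genes. Over all of them, the log2 ratio (hyperoxia over room air) had a median of 0.03. Without mitochondrial, ribosomal protein and haemoglobin genes in the total, 163 were higher and 153 lower, and the median was -0.04. With every cell thinned to 2000 UMIs, which left 16 cells of room air and 84 of hyperoxia, 55 were higher and 93 lower. At this depth a gene low in room air has few UMIs there and a wide interval, so higher genes are harder to call than lower ones. The 2 counts therefore do not show which direction had more genes. Ribosomal protein UMIs made up 16.1% of the members' UMIs in room air and 11.4% in hyperoxia, beside 15.6% and 14.2% in all other kept barcodes, and 79 of 84 ribosomal protein genes were lower in hyperoxia, with a median log2 ratio of -0.46. The part of this in other values was not tested.

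Genes of the contractile apparatus, the proteins that make and carry force, mostly differed by less than 2-fold between the libraries, as did most of all genes. Of 27 of its 30 genes with a mean of at least 50 CPM, 20 were higher and 7 lower, and the median log2 ratio was 0.24. The interval lay above 0 for 13 and below 0 for 4 of them, where 12.1% and 10.9% of all genes had such an interval. A gene with more UMIs has a narrower interval, so these counts also depend on the level of a gene. Without *Myh11*, *Cnn1* and *Des*, which the rule used, 17 of 24 genes were higher and 7 lower. The interval lay above 0 for 10 and below 0 for 4 of these 24, and their median was 0.17. *Acta2* ranged from 1377 CPM to 26605 CPM among the cells of room air, with a median of 13547 CPM, and from 0 to 34522 CPM with a median of 15837 CPM in hyperoxia, so that the cells of both libraries overlapped over nearly their whole range. Its log2 ratio was 0.24 (0.18 to 0.30). For *Tagln*, transgelin, the value was 0.33 (0.26 to 0.41), for *Actg2* 0.24 (0.07 to 0.42) and for *Mylk*, the myosin light chain kinase of smooth muscle, 0.07 (-0.10 to 0.25). *Myl9* and *Actc1* were slightly lower, at -0.25 (-0.37 to -0.13) and -0.33 (-0.48 to -0.18). The 1 gene past 2-fold was *Myh10*, whose log2 ratio of 1.19 was 0.66 as a mean over cells and 0.57 at 2000 UMIs, and which encodes a non-muscle myosin heavy chain, with 312 CPM (236 to 404) under room air against 711 CPM (655 to 770) under hyperoxia. In the other contractile cells *Myh10* had 611 and 629 CPM. *Cnn1* had a log2 ratio of 0.93 (0.66 to 1.21), and of 1.57 (1.42 to 1.71) in the other contractile cells.

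**Figure D3:**
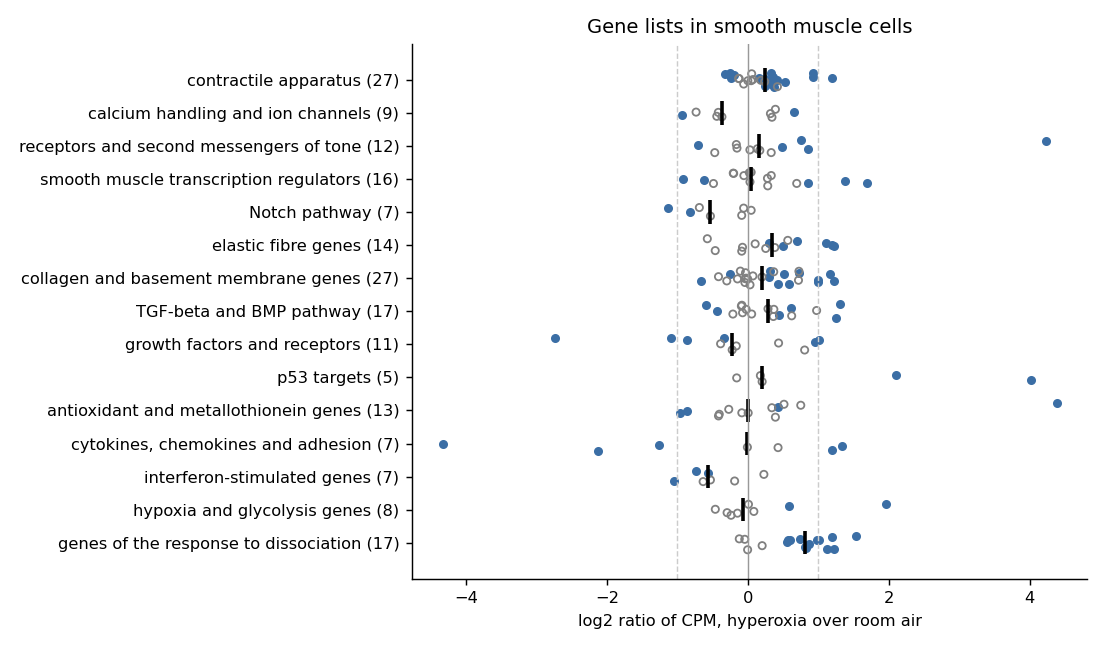
Log2 ratio of CPM, hyperoxia over room air, for the genes of 15 lists with a mean of at least 50 CPM in the smooth muscle cells (number in parentheses). Filled points have an interval of counting error that leaves out 0, open points do not, the black bar is the median of the list, and dashed lines mark 2-fold. The contractile apparatus lay close to 0, and the genes of the response to dissociation lay mostly to the right.

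Few genes that set tone and membrane potential were past 2-fold, as was so for all genes, of which 5.63% were 2-fold higher and 3.32% lower. None of 9 genes of calcium handling and ion channels was past 2-fold, with a median of -0.37. *Kcnk3*, the TASK-1 potassium channel that holds the resting potential of pulmonary artery muscle, had 383 CPM (299 to 484) under room air against 200 CPM (171 to 233) under hyperoxia, or on the log2 scale -0.94 (-1.35 to -0.52). *Atp2a2*, the calcium pump SERCA2, had 509 and 805 CPM. Of 12 genes of receptors and second messengers, 1 was past 2-fold, *Rgs5*, and the median was 0.15. *Gucy1a3* and *Gucy1b3*, the subunits of the nitric oxide receptor, had log2 ratios of 0.03 (-0.27 to 0.34) and 0.17 (-0.21 to 0.57). *Ednrb*, an endothelin receptor, was lower at -0.70 (-1.08 to -0.31), and *Ednra*, the endothelin receptor that contracts muscle, had -0.47 (-1.16 to 0.27). *Rgs5*, a brake on G protein signals and a pericyte gene, had 3 UMIs in room air and 258 in hyperoxia, 148 of these in 1 cell. Its log2 ratio of 4.23 (2.67 to 6.52) was 1.62 when members were allowed 1 UMI of each of *Ptprc*, *Cdh5*, *Epcam* and *Pdgfra*.

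Of 16 transcription regulators of smooth muscle, *Mef2d* and *Klf2* were at least 2-fold higher, where 5.63% of all genes were, and none was 2-fold lower. The median was 0.04, or -0.05 without the mitochondrial, ribosomal protein and haemoglobin genes in the total. *Klf2*, a factor better known in endothelium, had 76.7 CPM (41.9 to 129) under room air against 247 CPM (214 to 283) under hyperoxia. *Myocd* and *Srf* had log2 ratios of 0.28 (-0.21 to 0.80) and 0.69 (-0.27 to 1.81), so that no difference was detectable at this depth. Of 7 genes of the Notch pathway, 6 were lower, 2 with an interval below 0, and *Notch2* was past 2-fold, with a median of -0.53. Of all genes 47.6% were lower, 10.9% had an interval below 0, and 3.32% were 2-fold lower. *Notch2* rested on few cells, as its log2 ratio of -1.14 was -0.38 without the room air cell with most of its UMIs and -0.070 at 2000 UMIs. *Notch3* itself had -0.06 (-0.56 to 0.47). *Jag1*, a Notch ligand, had -0.69 (-1.36 to 0.03) and *Rbpj*, the factor that carries the Notch signal in the nucleus, -0.82 (-1.50 to -0.09).

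Of 14 genes of elastic fibres, 10 were higher in hyperoxia, 6 with an interval above 0, where 12.1% of all genes had one, and *Ltbp1*, *Lox* and *Loxl2* were past 2-fold, with a median of 0.34. Of all genes, 5.63% were 2-fold higher and 3.32% lower. The log2 ratio of *Lox*, 1.11, was 0.42 at 2000 UMIs. *Eln*, the gene of elastin, ranged from 387 CPM to 47453 CPM over the cells of room air (median 12709) and from 0 to 55231 CPM in hyperoxia (median 18371). The cells of the libraries overlapped, and the summed level was 14744 CPM under room air against 18152 CPM under hyperoxia, or on the log2 scale 0.30 (0.24 to 0.36). In the other contractile cells *Eln* was lower in hyperoxia, at -0.38 (-0.39 to -0.37), and the difference between these ratios was not tested. *Lox*, which cross-links elastin and collagen, had 208 CPM (147 to 286) and 449 CPM (405 to 497). *Ltbp1*, which stores TGF-beta in the matrix, had 181 CPM (124 to 254) and 420 CPM (377 to 466). Of 27 collagen and basement membrane genes, *Col5a1* and *Col6a3* were at least 2-fold higher and none 2-fold lower, with a median of 0.20. *Col5a1*, at a log2 ratio of 1.22, had 0.19 at 2000 UMIs. *Col4a1*, a chain of basement membrane collagen, had a log2 ratio of 0.995 (0.72 to 1.29), just below 2-fold, and *Col1a1*, of fibrillar collagen, -0.25 (-0.46 to -0.03). *Mgp*, an inhibitor of calcification, was lower in hyperoxia at -0.66 (-0.75 to -0.57), and higher in all other kept barcodes at 0.55 (0.54 to 0.56).

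Of the genes with a mean of at least 100 CPM that the naming rule took, *Igfbp5* had the lowest ratio. It was found in 14 of 17 members of room air, with a median of 2865 CPM and a highest value of 13323 CPM, and in 54 of 86 members of hyperoxia, with a median of 182 CPM and a highest value of 10002 CPM. The ranges overlapped, with 3 cells of room air and 32 of hyperoxia at 0, and 8 of 17 and 10 of 86 cells above the median cell of room air. The summed level was 6183 CPM (5828 to 6555) under room air against 924 CPM (860 to 992) under hyperoxia, or on the log2 scale -2.74 (-2.88 to -2.61). At 2000 UMIs per cell 12 of 16 (47.6 to 92.7%) and 44.0% (33.2 to 55.3) of members had it, against 5.73% and 3.87% of B-cell barcodes at full depth. *Igfbp5* was also lower in the other contractile cells, with 2198 and 650.02 CPM, and in all other kept barcodes, with 499.8 and 178 CPM. Members without *Sost*, a split chosen after the values were seen, had 9657 CPM of *Igfbp5* in 10 cells of room air and 1714 CPM in 41 cells of hyperoxia, and the ratio was -2.49 (-2.64 to -2.35). In members with *Sost* it was 532 and 369 CPM, or on the log2 scale -0.53 (-1.05 to 0.02). On the airway side, with 4 and 15 cells, the direction was opposite, at 1.33.

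*Cxcl12* (ENSMUSG00000061353, chromosome 6, 117168535 to 117181367), a chemokine that attracts leukocytes and progenitors through CXCR4, came next. It was found in 15 of 17 members of room air, with a median of 1102 CPM and a highest value of 2392 CPM, and in 45 of 86 of hyperoxia, with a median of 90.5 CPM and a highest value of 1435 CPM. Most cells of room air lay above the median cell of hyperoxia. The sums were 893 CPM (761 to 1041) and 205 CPM (175 to 238), or on the log2 scale -2.12 (-2.44 to -1.81). It was lower both in members with *Sost*, at -1.35 (-1.97 to -0.70), and in members without, at -2.20 (-2.61 to -1.80). The other contractile cells had little *Cxcl12*, with 32.6 and 30.8 CPM and a log2 ratio of -0.08 (-0.37 to 0.21). *Mustn1*, a vascular marker, had 2179.8 and 936 CPM, or on the log2 scale -1.22 (-1.40 to -1.04).

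The other genes lowest in hyperoxia by the same rule were *Clu*, *Adamts8*, *Bmp3*, *Gabarapl1*, *Figf*, *Hlf*, *Tgm2*, *Slc39a1*, *Tmem256* and *Ndufa3*, with log2 ratios from -1.70 to -1.35. *Clu*, the secreted chaperone clusterin, had 471 CPM (377 to 582) under room air against 145 CPM (120 to 173) under hyperoxia, and was higher in hyperoxia in the other contractile cells (18.2 and 33.8 CPM). *Hlf*, a transcription factor of the circadian output, had 257 and 92.2 CPM, and was also lower in all other kept barcodes, with 91.2 and 58.9 CPM. *Figf*, the growth factor VEGF-D, rested on few cells. It had 31 UMIs in 7 cells of room air, 14 of them in 1 cell, and its log2 ratio of -1.56 (-2.24 to -0.86) became 1.004 in vascular-side cells alone. *Tgm2*, a transglutaminase, had 34 of its 53 UMIs of room air in 1 cell, and its log2 ratio was -0.15 without that cell.

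Of the 12 genes highest in hyperoxia, *Csrp2* had the most UMIs. *Csrp2* (ENSMUSG00000020186, chromosome 10, 110919789 to 110939622) encodes a LIM protein of smooth muscle that takes part in SRF complexes. It ranged from 0 to 2438 CPM over the cells of room air, with a median of 312 CPM, and from 0 to 7135 CPM in hyperoxia, with a median of 1009.6 CPM. The cells overlapped up to the highest value of room air, and only cells of hyperoxia reached beyond it. The sums were 466 CPM (372 to 576) and 1939 CPM (1846 to 2036), or on the log2 scale 2.06 (1.74 to 2.39), beside 0.89 (0.80 to 0.98) in the other contractile cells. In members with *Sost* it was 1.81 (1.43 to 2.23) and in members without 1.37 (0.81 to 1.98). *Ptgis*, at the same pole of the cells, had 225 CPM (161 to 305) and 566 CPM (516 to 620). *Sost*, *Mylk4*, *Nov*, a matricellular protein, and *Cspg4*, the proteoglycan NG2 of mural cells, were higher by 1.32 (0.80 to 1.89), 1.51 (0.58 to 2.60), 1.82 (1.09 to 2.65) and 1.72 (1.05 to 2.47). A different mix of cells and a different level per cell cannot be told apart in these sums.

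*Pcp4*, *Mt1*, *Rgs5* and *Zbtb16* were nearly missing in room air. *Pcp4*, a calmodulin regulator, had 1 UMI in room air and 175 in hyperoxia, where 27 of 86 members had it and no cell more than 23, or on the log2 scale 5.26 (2.76 to 10.57). Its hyperoxia level was 753 CPM on the airway side and 91.1 CPM on the vascular side. *Mt1*, a metallothionein that binds zinc, had 1 UMI in each of 2 cells of room air, and was found in 44 of 86 members of hyperoxia, at 229 CPM (197 to 263), or on the log2 scale 4.38 (2.51 to 7.44). In all other kept barcodes it was slightly lower in hyperoxia, with 206 and 172 CPM. *Zbtb16*, the transcription factor PLZF and a known glucocorticoid target, had 2 UMIs in 2 of 17 members of room air and 161 UMIs in 65 of 86 members of hyperoxia, at 193 CPM (164 to 225). All other kept barcodes had 6.63 and 79.4 CPM of *Zbtb16*, and the other contractile cells 3.39 and 62.7 CPM. Of B-cell barcodes 0.781% and 5.55% had *Zbtb16*. *Phip*, *Pdzd2*, *Pde4dip*, *Arhgef7* and *Hdgf* completed the 12 highest, with log2 ratios from 1.56 to 1.91. *Pdzd2* was lower in hyperoxia in the other contractile cells, with 561 and 294 CPM.

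**Figure D4:**
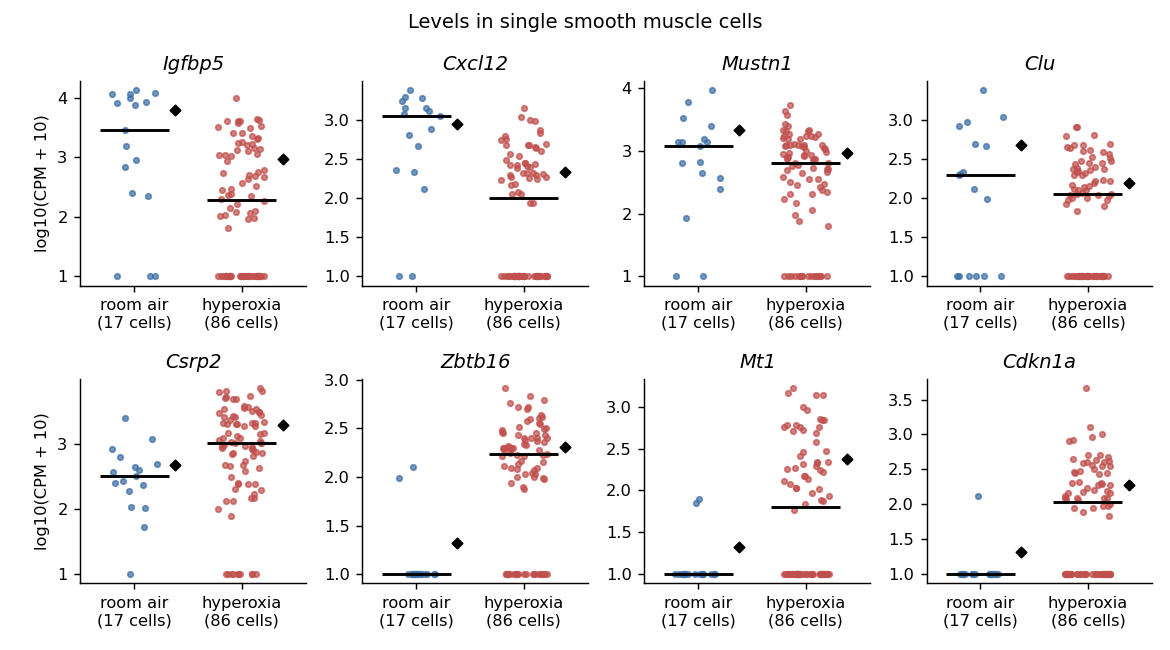
Level of 8 genes in single smooth muscle cells, as log10(CPM + 10), for 17 cells of room air (blue) and 86 of hyperoxia (red). Each point is a cell, the black bar is the median cell, the diamond is the CPM summed over the cells, and cells without a UMI lie at 1. *Igfbp5*, *Cxcl12*, *Mustn1* and *Clu* were lower in hyperoxia, and *Csrp2*, *Zbtb16*, *Mt1* and *Cdkn1a* higher.

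The p53 targets did not move together in the members. Of 5 targets with a mean of at least 50 CPM, *Cdkn1a* and *Trp53inp1* were at least 2-fold higher in hyperoxia, where 5.63% of all genes were, and the median was 0.20. *Cdkn1a* (ENSMUSG00000023067, chromosome 17, 29090976 to 29100727) encodes p21, which stops the cell cycle. It had 2 UMIs in 1 of 17 cells of room air and 149 UMIs in 50 of 86 cells of hyperoxia, with a median cell at 97.0 CPM and the highest at 4611 CPM. Its sum was 10.95 CPM (1.33 to 39.6) under room air against 178 CPM (151 to 209) under hyperoxia, with a ratio of 4.03 (2.15 to 7.08) on the log2 scale. When members were allowed 1 UMI of each of *Ptprc*, *Cdh5*, *Epcam* and *Pdgfra*, the ratio was 1.33. B-cell barcodes, which can make *Cdkn1a* themselves, had it in 11.5% and 24.2%. The other contractile cells had 36.2 and 849 CPM, and all other kept barcodes 146 and 685 CPM. *Bax*, a pore protein of cell death, had a log2 ratio of 0.18 (-0.58 to 1.02) in the members and of 1.40 (1.28 to 1.53) in the other contractile cells. For *Phlda3*, an inhibitor of Akt, the values were -0.16 (-1.18 to 1.004) and 1.70 (1.53 to 1.88), for cyclin G1 (*Ccng1*) -0.66 (-1.74 to 0.54) and 1.93 (1.66 to 2.21), and for *Btg2* 0.20 (-0.13 to 0.54) and 0.96 (0.89 to 1.02). Of the 5 targets with a mean of at least 50 CPM 1 was lower, so *Phlda3* and *Ccng1* were not both among them. The intervals of the members and of the other contractile cells did not overlap for *Bax*, *Phlda3*, *Ccng1* and *Btg2*, and overlapped for *Cdkn1a* and *Trp53inp1*. The share of all genes with intervals apart in this way was not computed, so nothing particular to p53 targets can be read from it. With 1 library per group the difference between the members and the other contractile cells could not be tested.

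**Figure D5:**
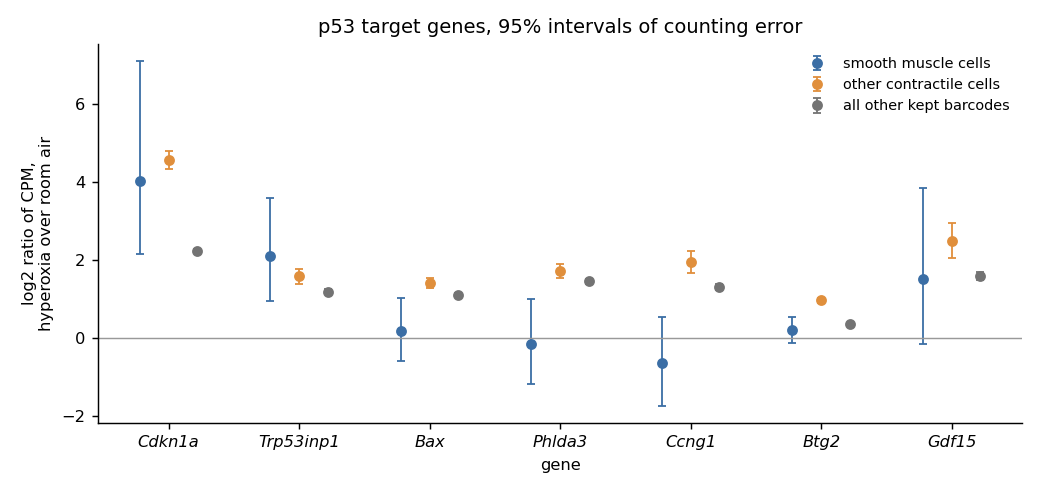
Log2 ratio of CPM, hyperoxia over room air, of 7 p53 target genes in the smooth muscle cells (blue), the other contractile cells (orange) and all other kept barcodes (grey), with 95% intervals of counting error. *Bax*, *Phlda3* and *Ccng1* lay near or below 0 in the smooth muscle cells and above 1 in both other groups, and *Cdkn1a* lay above 2 in all groups.

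Of 17 genes of the TGF-beta and BMP pathway, *Id1*, a target of BMP signals, and *Ctgf*, a matricellular target of TGF-beta, were at least 2-fold higher and none was 2-fold lower, with a median of 0.29. For this and the next lists, 5.63% of all genes were 2-fold higher and 3.32% lower. At 2000 UMIs the log2 ratio of *Id1* was -0.14. *Ctgf* had 400 CPM (313 to 503) and 993 CPM (927 to 1063), and 50 of its 73 UMIs of room air came from 1 cell, without which the log2 ratio went from 1.31 to 2.86. Of 11 growth factors and receptors, *Igf1r* was past 2-fold higher and *Igfbp5* and *Angpt2*, an angiopoietin that loosens vessels, past 2-fold lower, with a median of -0.22. *Igf1r* had 0.75 at 2000 UMIs, and *Angpt2* -0.70 without the room air cell with most of its UMIs. Of 7 cytokines, chemokines and adhesion genes, *Nfkbia* and *Ptgis* were higher and *Il1r1*, *Cxcl12* and *Vcam1* lower. *Vcam1* rested on 1 cell with 17 of its 22 UMIs of room air, and its log2 ratio of -4.33 was -2.39 without that cell. In the same way *Il1r1* came to -0.45 and the interferon-stimulated *Bst2* to -0.83. Of 4 hedgehog and Wnt genes none was past 2-fold. Of 13 antioxidant genes, *Mt1* was past 2-fold, and *Sod3*, the extracellular superoxide dismutase of vessel walls, had 553 CPM (451 to 672) and 285 CPM (250 to 323), with a median of 0.005 for the list. Of 7 interferon-stimulated genes, 6 were lower, 3 with an interval below 0, where 10.9% of all genes had one, and *Bst2* was past 2-fold, with a median of -0.56, and *Ifitm3* had 1024 and 614 CPM. Of 8 hypoxia and glycolysis genes, *Pdk4*, which holds back glucose oxidation, was past 2-fold higher (4 and 71 UMIs), with a median of -0.07. Only *Ccnd2* of the cell cycle list reached 50 CPM, at 0.66 (0.13 to 1.23). Of 6 imprinted growth genes, *Igf2* was past 2-fold lower, with 16 UMIs in room air and 11 in hyperoxia, and *H19* had 13 UMIs in room air, 10 of them in 1 cell, and 0 in hyperoxia. Of 2 sex-linked genes with a mean of at least 50 CPM none was past 2-fold.

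Genes of the response to tissue dissociation, which rise while tissue is digested, were higher in hyperoxia in 14 of 17 cases, 13 with an interval above 0, where 12.1% of all genes had one, with a median of 0.81. *Fos*, *Hsp90aa1*, *Ier2*, *Zfp36* and *Klf6* were past 2-fold, *Fos* with 1660 and 3351 CPM, but at 2000 UMIs the log2 ratio of *Fos* was 0.84, and as a mean over cells that of *Klf6* was 0.21. Their part in the other values was not tested. The epithelial markers *Sftpc* and *Sftpa1* and the leukocyte marker *Lyz2*, were also past 2-fold higher in the members, and of the other fibroblast markers *Npnt*, with 197 and 426 CPM. Summed epithelial markers were 405 and 2133 CPM, leukocyte markers 76.7 and 183 CPM, and other fibroblast markers 581 and 795 CPM. Of 6 pericyte markers with a mean of at least 50 CPM, *Cspg4* and *Rgs5* were past 2-fold. The part of other cells' RNA in these values was not tested. Cardiac muscle markers summed to 2826 and 2457 CPM, mostly *Actc1*, and myofibroblast markers, which the rule limits, to 120 and 194 CPM. Without the members rich in *Sftpc*, *Myl7* or *Higd1b*, 171 genes were at least 2-fold higher and 105 lower, and *Igfbp5*, *Cxcl12* and *Csrp2* had log2 ratios of -2.69, -2.09 and 2.11.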

How the data were processed

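Lungs were digested, and 10x Genomics 3′ libraries were made from 2 pools of 8 mice, 1 per group. With Cell Ranger and the mouse genome mm10 (GRCm38), the authors made a table of UMI counts for each library and deposited the raw counts, with no normalization, for 27998 genes. The gene and barcode name files, deposited as text, hold other, not numeric, entries. The sources differ on the Cell Ranger version (6.1.1 in the extract protocol, 2.1.1 in the submitters' processing notes, 3.1.0 in the matrix headers) and on the kit version. The room air library held 4234 barcodes (39593888 UMIs) and the hyperoxia library 13223 (111934936 UMIs).

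Python 3.11.15, numpy 2.4.6, scipy 1.17.1, pandas 2.3.3 and scanpy 1.11.5 were used. Counts of genes with the same symbol were added. UMIs were summed per gene over the members of a library and divided by all their UMIs. Log2 ratios have exact conditional intervals. Their code was run on simulated independent Poisson counts, which is the model the intervals assume. That run cannot show how the intervals hold where 1 cell carries many of a gene's UMIs. A gene was compared at a mean of at least 50 CPM, and called at 2-fold with an interval that left out 0. No p-value was computed. Doublets were not removed from the members, and Scrublet, which calls doublets, was an alternative. It called 0 of the 17 members of room air and 8 of the 86 of hyperoxia. Without the doublets, 180 genes were at least 2-fold higher and 97 lower. Cells were thinned to 2000 UMIs without replacement where shares of positive cells are given so, which left out 1 member of room air and 2 of hyperoxia. Named genes were those of 19 lists and 13 marker lists, the 12 highest and 12 lowest log2 ratios (mean of at least 100 CPM, interval beyond 0, and, in the library where higher, at least the CPM of all other kept barcodes; no mitochondrial, ribosomal protein, haemoglobin, sex-linked or unnamed genes), and the 15 genes with the highest ratio over all other kept barcodes. *Igfbp5* as a reference, the split by *Sost* and the B-cell barcodes were chosen after seeing the data. Members and lists were chosen with earlier results of these data known. Gene positions are from GENCODE release 21 for the mouse, and promoters from RefSeq. Alternatives changed the limits of the rule, the scaling, the filter and the cells used.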

Additional observations from a re-analysis of the deposited data

How the results depend on the processing

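No paired analysis was possible because each group had 1 library, and for the same reason no library could be left out. The share of smooth muscle cells in hyperoxia was 0.948% with at least 10 contractile UMIs per 10000 and 0.529% with an *Aspn* sum limit of 2. With no *Aspn* sum limit the shares were 3.36% in room air and 3.85% in hyperoxia, vascular-side cells were 61.6% in hyperoxia, and 73 genes were 2-fold higher and 75 lower. At 2000 UMIs per cell 55 genes were 2-fold higher and 93 lower. The counts of higher and lower genes were 359 and 290 at a mean of at least 10 CPM, 85 and 41 at 100, 359 and 307 with no filter, and 98 and 162 in airway-side cells. The other values of shares, counts of genes and the contractile median stayed within their counting interval or within 1.5 times, the median between 0.13 and 0.39. Of 1101 values of 51 genes past 2-fold, 974 stayed within the gene's interval, 110 lay outside it with the same direction, and 17 changed direction. The 974 include 51 values from each of the settings at 10 CPM, at 100 CPM and with no filter. Those settings cannot change a gene's ratio, so these values were fixed in advance. Of those 51 genes, 37 were under 2-fold with no *Aspn* sum limit, 10 with at most 1 UMI of each excluded gene, 8 as a mean over cells, 8 of 43 at 2000 UMIs, 22 of 50 in members with *Sost* and 17 of 45 in airway-side cells. With no *Aspn* sum limit, which adds other contractile cells by construction, the log2 ratio was -0.069 for *Phip*, -1.54 for *Pdzd2*, 0.84 for *Adamts8*, 0.13 for *Hlf*, 0.14 for *Il1r1* and 0.34 for *Igf2*. In airway-side cells, of which room air had 4, it was 1.33 for *Igfbp5*, 0.84 for *Clu*, 0.49 for *Tgm2*, -0.32 for *Igf1r*, 0.078 for *Il1r1* and -0.11 for *Klf6*. It was 1.004 for *Figf* in vascular-side cells, -0.14 for *Id1* at 2000 UMIs, and, in members with *Sost* (chosen after seeing the data), 0.30 for *Tgm2*, 0.038 for *Angpt2* and 0.77 for *Il1r1*. The causes were not tested. The depth of room air, 182585 UMIs, limits what could be seen: a gene with 0 UMIs there may still have had 3.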
